A study of Mus musculus with 9 samples.

Results

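Cytosolic heat shock genes and the cold-inducible gene Rbm3 were examined in the kidneys of young, old and 3HB-treated old mice. The set holds 5 genes, Hsp90aa1, Hsph1, Hspa4l, Chordc1 and Rbm3, out of 489 distinct genes in the 2 deposited tables. The genes were chosen by their names and because they differed between 3HB and old mice in these data, so all 5 belong to the table of 113 genes called by the authors for that comparison. None of the 5 (0 genes) is in the table of 389 genes called for young against old. What the 3HB and old mice show for these genes is therefore a description, and no test was made of it.

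RNA was sequenced from the kidneys of 9 male ICR mice, an outbred stock. The young group (n = 3) was 2 months old and untreated, and the old group (n = 3) was 20 months old and untreated. The 3HB group (n = 3) was also 20 months old and had received the sodium salt of 3-hydroxybutyrate, a ketone body, in the drinking water (1 g/L), starting at 11 months. The animal room was kept at 24 ± 2 °C. The labels number the samples of a group without stating that each is a separate animal. They are called mice 1 to 3 here, and p-values measure only the spread between these samples. The deposited values are normalized expression values with 2 decimals, whose unit (TPM or FPKM) is not given, so levels are compared between mice and not between genes. Depth per mouse cannot be read from the tables. The methods paragraph on sequencing names muscle while the labels name kidney, and of the markers looked up, 2 of 6 for kidney (Lrp2 and Keg1) and 0 of 4 for skeletal muscle were in a table. Since only called genes are listed, the absence of muscle markers says nothing about the tissue. Keg1 lay between 704.3 and 1636.6 in the 9 mice.

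Cells answer heat and other stresses that unfold proteins through heat shock factor 1, a transcription factor that binds repeats of the letters GAA and TTC near its target genes and raises the production of chaperones. Chaperones bind unfolded proteins and help them fold, and they act in teams with co-chaperones. Rbm3 encodes an RNA-binding protein whose expression increases with mild cooling and which is known to favour translation in the cold, so it is usually read as the opposite arm of the temperature response. In the kidney, chaperones of the cytosol are known to be induced by ischaemia and by osmotic stress in the medulla.

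Each gene has a distinct role. Hsp90aa1 (ENSMUSG00000021270; GRCm38, chr12:110690605-110702728, minus strand) encodes the stress-inducible form of HSP90, which matures kinases and steroid receptors. Hsph1 (ENSMUSG00000029657; chr5:149614287-149636376, minus strand) encodes HSP105, a member of the HSP110 family that exchanges the nucleotide of HSP70. Hspa4l (ENSMUSG00000025757; chr3:40744495-40796103, plus strand) encodes another HSP110 family member. Chordc1 (ENSMUSG00000001774; chr9:18292125-18317442, plus strand) encodes a zinc-binding partner of HSP90. Rbm3 (ENSMUSG00000031167; chrX:8138975-8145880, minus strand) is the only gene of the set outside the chaperone system. All 5 are protein-coding in GENCODE M21, whose build is the one named in the submitters' processing notes. The processed pseudogene Gm19178 lies on the opposite strand within an intron of Chordc1, and the antisense gene Rbm3os overlaps an exon of Rbm3. The strand setting of the authors' counting is not given in the sources used here, so reads of Rbm3 and Rbm3os cannot be told apart. A pseudogene named Rbm3-ps on chromosome 1 could share reads with Rbm3 as well.

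Since the 4 heat shock genes differed in the same direction, their promoters were searched for the letters that heat shock factor 1 is known to bind. RefSeq windows of 300 bases (GRCm38.p6, 250 before and 50 from the transcription start onward) were held for Hsph1, Hspa4l and Chordc1, 3 of the 5 genes. Either GAANNTTC or TTCNNGAA was taken as a pair of units, and GAANNTTCNNGAA or TTCNNGAANNTTC as 3 units in a row. Each pair reads the same on the other strand, the longer forms are each other's reverse complement, and each longer form contains 2 overlapping pairs. Of the stretches that hold such letters, 3 of 30 bases each are shown 5′ to 3′ on the strand of the gene, with the matched letters in capitals. They are the first Hsph1 stretch at chr5:149636351-149636380, the second at chr5:149636280-149636309 and the Chordc1 stretch at chr9:18292259-18292288.
Hsph1, upstream: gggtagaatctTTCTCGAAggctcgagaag
Hsph1, start: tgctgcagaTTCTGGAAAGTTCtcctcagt
Chordc1, start: accgGAACGTTCGGGAAAATTCCTGAAgca

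In Chordc1, the run of alternating GAA and TTC units began 4 bases before the RefSeq start and held 3 overlapping matches to the longer forms. A further pair, not shown, began 33 bases after that start. In Hsph1, the match to a longer form began 15 bases after one of 2 RefSeq starts and 36 bases after the other, and the pair upstream began 54 or 33 bases before them. The Hspa4l window held no match to either form, which says only that these letters are not in this window. Of all 27025 genes with a window, 17.0% held a pair and 0.662% (179 genes) held 3 units in a row. Of the genes higher in 3HB mice, 26 had a window, of which 7 (26.9%) held a pair and 3 (11.5%) held 3 units. These 3 were Nploc4 and 2 members, Hsph1 and Chordc1, which were chosen by name as heat shock genes. The shares among genes higher in 3HB mice include these members, so no enrichment is read from them. Of the 38 genes lower in 3HB mice that had a window, 6 (15.8%) held a pair and 1 (2.63%), Rps18, held 3 units. A match of letters is not evidence of binding.

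All 4 heat shock genes were higher in 3HB than in old mice, and their values did not overlap between these groups. The differences were close to each other, between 0.89 and 1.16 on the scale of log2(value + 1), with a median of 1.07. On the same scale the median was 0.83 over the 43 genes of the table that were higher in 3HB mice and -0.42 over all 113. Rbm3 was lower in 3HB than in old mice, also without overlap. Of the genes of this table, 38.1% were higher in 3HB mice without overlap and 51.3% were lower without overlap, but the table holds only genes called on these same mice, so nothing is read from the members' counts against these shares. In bulk tissue, fewer cells of a type and less RNA per cell cannot be told apart.

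Hsp90aa1 had values of 108.0, 98.7 and 80.5 in the old mice and 181.0, 169.7 and 180.9 in the 3HB mice. On the deposited values the 3HB mice lay close together, with a coefficient of variation of 3.66% against 14.7% in the old mice. The lowest 3HB mouse was 1.57 times the highest old mouse. After rescaling the mice to a common median over the listed genes, both groups were spread more widely. The values were then 177.9, 143.8 and 187.3 in the 3HB mice and 106.9, 99.4 and 70.6 in the old mice. The means were 95.7 ± 14.0 in old and 177.2 ± 6.48 in 3HB mice (SD, n = 3 each), a ratio of 1.85 and a log2 difference of 0.89 (standard error 0.13). It ranked 17th of 43 among the genes higher in 3HB mice by log2 difference.

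Hsph1 had values of 48.1, 52.8 and 41.3 in the old mice and 114.5, 82.2 and 128.8 in the 3HB mice. The lowest 3HB mouse was 1.56 times the highest old mouse. The means were 47.4 ± 5.74 in old and 108.5 ± 23.8 in 3HB mice (SD, n = 3 each), a ratio of 2.29 and a log2 difference of 1.16 (standard error 0.22). This was the sixth largest increase of the table and the largest of the 4 heat shock genes on the log2(value + 1) scale.

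Hspa4l had low values throughout, 2.72, 2.59 and 3.57 in the old mice and 6.18, 8.81 and 6.99 in the 3HB mice. The lowest 3HB mouse was 1.73 times the highest old mouse. The means were 2.96 ± 0.532 in old and 7.33 ± 1.35 in 3HB mice (SD, n = 3 each). The ratio of means was 2.48, the highest of the 5 genes. The log2 difference was 1.07 (standard error 0.17), and since the value of 1 added before the logarithm weighs more on low values, it was 1.28 when 0.1 was added.

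Chordc1 had values of 9.95, 11.03 and 11.95 in the old mice and 20.3, 26.6 and 25.9 in the 3HB mice. The lowest 3HB mouse was 1.70 times the highest old mouse. The means were 11.0 ± 1.00 in old and 24.3 ± 3.47 in 3HB mice (SD, n = 3 each), a ratio of 2.21 and a log2 difference of 1.07 (standard error 0.14).

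**Figure D1:**
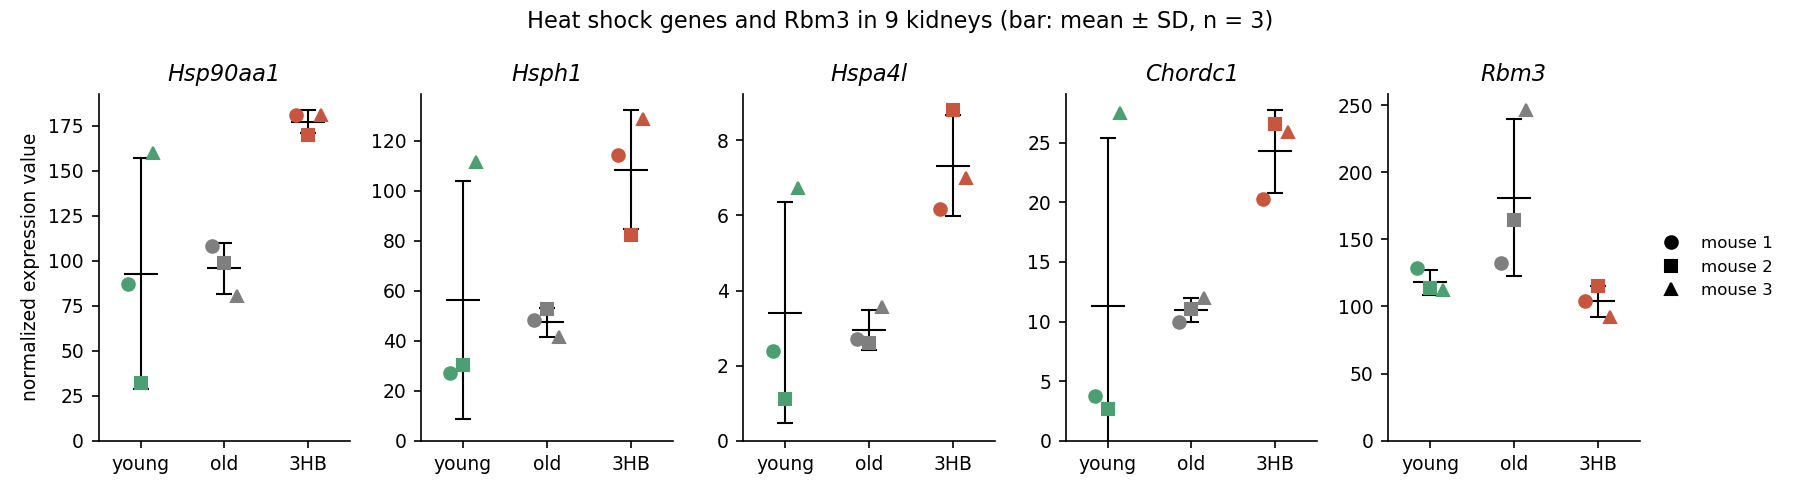
Normalized expression value (y axis, linear and from 0) of each gene in each of the 9 mice, grouped as young, old and 3HB on the x axis. Symbols mark the mouse number and bars give mean ± SD (n = 3); the lower bar of young mice for Chordc1 runs below 0 and is not drawn there. In the 4 heat shock genes the 3HB mice lie above the old mice, and young mouse 3 lies far above the other young mice, while in Rbm3 the old mice are highest.

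Rbm3 had values of 132.7, 164.2 and 246.3 in the old mice and 103.9, 115.4 and 91.9 in the 3HB mice. The old mice were spread more widely, with a coefficient of variation of 32.4% against 11.3% in the 3HB mice, and the lowest old mouse was 1.15 times the highest 3HB mouse. The means were 181.0 ± 58.6 in old and 103.7 ± 11.7 in 3HB mice (SD, n = 3 each), a log2 difference of -0.76 (standard error 0.28). The old mean was 1.75 times the 3HB mean. The decrease ranked 22nd of 70 among the genes lower in 3HB mice. Old mouse 3 carried part of it, since the log2 difference was -0.51 without that mouse.

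**Figure D2:**
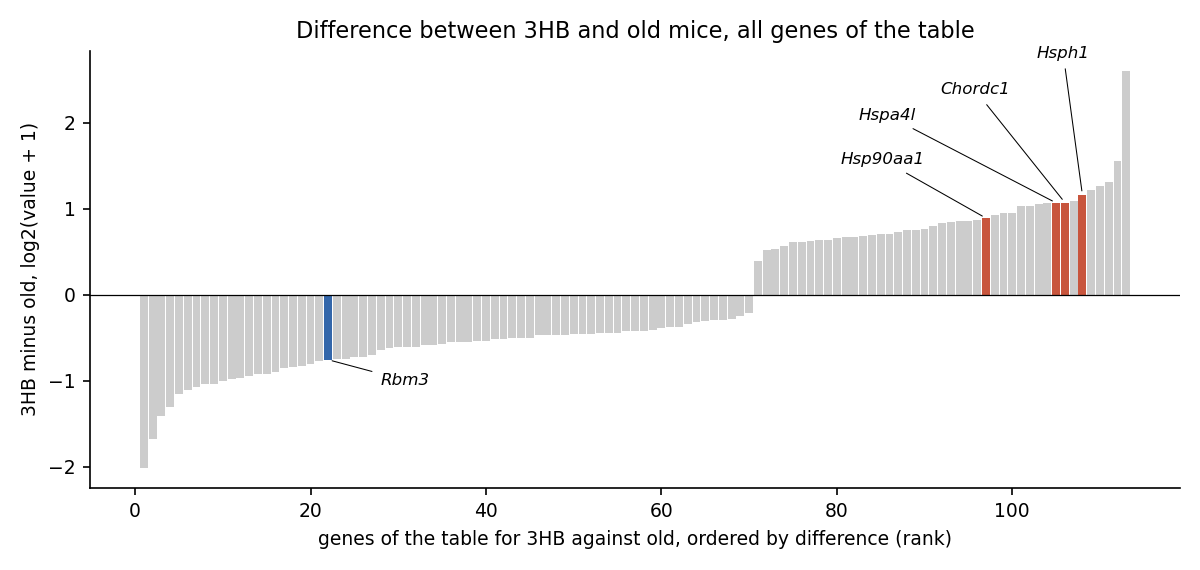
Log2 difference between 3HB and old mice (y axis) for the 113 genes of the table, ordered from the most negative to the most positive (x axis, rank). The heat shock genes (red) stand between 0.89 and 1.16 and Rbm3 (blue) stands at -0.76. Only genes called by the authors are listed.

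Rbm3 was set against the heat shock genes within each mouse, which needs no scale shared between mice. The ratio of the Hsp90aa1 value to the Rbm3 value was 0.814, 0.601 and 0.327 in the old mice. In the 3HB mice it was 1.74, 1.47 and 1.97, and in young mice 1, 2 and 3 it was 0.677, 0.280 and 1.43. The ratio of Hsph1 to Rbm3 was between 0.168 and 0.363 in the old mice and between 0.713 and 1.40 in the 3HB mice. The ratio of Hspa4l to Rbm3 lay between 0.0145 and 0.0205 in old and between 0.0595 and 0.0764 in 3HB mice, and that of Chordc1 lay between 0.0485 and 0.0750 in old and between 0.195 and 0.282 in 3HB mice. The old and 3HB mice did not overlap in any of the 4 ratios, a separation that the choice of the genes already fixes. The order of mice within a group does need a shared scale. On the deposited values, old mouse 3 had the most Rbm3 and the least Hsp90aa1 and Hsph1 of the old mice but the most Hspa4l and Chordc1. After rescaling the mice to a common median over the listed genes, that order held except for Chordc1, which was then highest in old mouse 2.

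**Figure D3:**
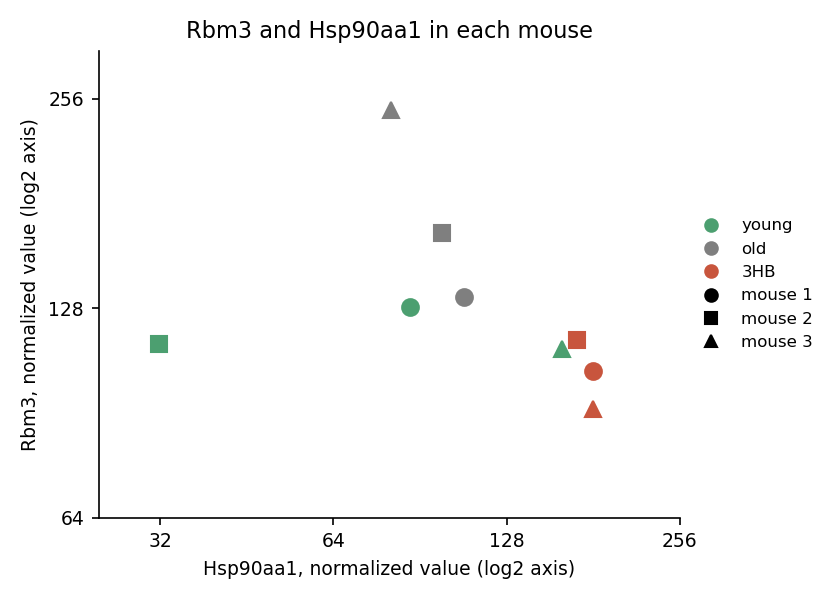
Rbm3 value (y axis) against Hsp90aa1 value (x axis) in each of the 9 mice, both on log2 axes, with colour for the group and symbol for the mouse. The 3HB mice and young mouse 3 lie at the right with Rbm3 between 91.9 and 115.4, the old mice lie at the upper middle, and young mouse 2 lies at the far left with an Rbm3 value of 113.7.

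The young mice were not used to choose the genes, but the old mice were, since the genes were called on them against 3HB. That choice favours low old values of the heat shock genes and high old values of Rbm3. Whether these genes differ with age is therefore read with this limit, for the differences and the p-values alike. The 4 heat shock genes showed no separation between young and old mice, because young mouse 3 lay above every old mouse and the other young mice reached below the old mice. Hsp90aa1 was at 87.1, 31.8 and 159.6 in young mice 1, 2 and 3, Hsph1 at 27.2, 30.3 and 111.4, Hspa4l at 2.40, 1.12 and 6.72, and Chordc1 at 3.75, 2.68 and 27.5. Young mouse 3 was the highest young mouse in all 4 genes, by 2.68 times the mean of the other young mice for Hsp90aa1, 3.88 times for Hsph1, 3.82 times for Hspa4l and 8.57 times for Chordc1. Its values stood within the range of the 3HB mice for Hsph1 and Hspa4l, above it for Chordc1 and below it for Hsp90aa1. On the deposited values the other young mice were below every old mouse in Hsph1, Hspa4l and Chordc1. The coefficient of variation of the young group was between 69.0% and 124.1% in the heat shock genes, against 9.12% to 18.0% in the old group.

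With all young mice, the log2 difference of old minus young was 0.31 for Hsp90aa1 (standard error 0.68), 0.057 for Hsph1 (0.65), 0.044 for Hspa4l (0.56) and 0.59 for Chordc1 (0.93). None passed the test (exact permutation over mice, two-sided, p = 0.8, 1, 0.8 and 0.5, and 0.825, 1, 0.825 and 0.549 after Benjamini-Hochberg adjustment over the 489 genes, most of them listed for differing with age in these mice, so that adjusted values control no error rate), and with 3 mice against 3 the smallest p is 0.1. Each difference was smaller than its standard error, so neither a difference nor its absence was shown. Rescaling the mice to a common median over the listed genes lowers every gene in old relative to young mice, by 0.30 on a log2 scale without an added value. Relative to that common shift, the differences of Hsph1 and Hspa4l became -0.23 and -0.16 on the log2(value + 1) scale. Most listed genes were called for age. The 376 called only for age had medians between -0.91 and -1.24 in single young mice relative to the old mean. The shift cannot be told apart from those age differences. The rescaled signs therefore depend on the reference genes and say nothing about the deposited scaling. The difference of Chordc1 rested on young mice 1 and 2, since it was 0.22 without young mouse 1 and 0.037 without young mouse 2. Taking the median in place of the mean of the mice, which gives young mouse 3 less weight, the differences were 0.18 for Hsp90aa1, 0.65 for Hsph1, 0.13 for Hspa4l and 1.34 for Chordc1. Of the genes of this table, 19.5% did not overlap between young and old mice, and of the 5 members 1, Rbm3, did not. Without young mouse 3, Hsph1, Hspa4l and Chordc1 were lower in young than in old mice without overlap, by a log2 difference of 0.70, 0.55 and 1.51, and Hsp90aa1 still overlapped. With 2 mice against 3 the smallest p of an exact permutation test is again 0.1. On the deposited values this was 3 of the 4 heat shock genes, where 52.2% of the genes of the table showed no overlap without young mouse 3. On the rescaled values the groups were separate without young mouse 3 in 1 of the 4 genes, Chordc1. The share of the table was not taken on rescaled values, so nothing is read from that count.

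Rbm3 was at 128.7, 113.7 and 111.9 in the young mice. The young group was tight, with a mean of 118.1 ± 9.22 (SD, n = 3), and every young mouse lay below every old mouse. The log2 difference of old minus young was 0.57 (standard error 0.27), which gave the lowest p that this design allows (exact permutation, p = 0.1, adjusted 0.132). The difference was 0.32 without old mouse 3. The gap between the groups was small, since the lowest old mouse was at 132.7, and the old mice are also the mice on which Rbm3 was called against 3HB. After the same rescaling the difference was 0.27 (p = 0.4 in the exact permutation test). Since that rescaling lowers every gene in old relative to young mice by 0.30, a smaller difference was built in.

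The genes were also called on the 3HB mice, which favours high 3HB values of the heat shock genes and low 3HB values of Rbm3. The differences and p-values of 3HB against young mice carry this limit. Between 3HB and young mice, Hsp90aa1 was higher in all 3HB mice than in any young mouse, with a log2 difference of 1.20 (standard error 0.67). Its exact permutation p was 0.1 (adjusted 0.137), and 0.2 after rescaling, when the groups overlapped. The difference was 0.58 without young mouse 2 and 1.73 without young mouse 3. Rescaling lowers every gene in 3HB relative to young mice by 0.30 on a log2 scale without an added value. Changes on rescaling in this comparison follow in part from that built-in shift. Hsph1, Hspa4l and Chordc1 overlapped because of young mouse 3, with log2 differences of 1.22, 1.11 and 1.66 (exact permutation test, p = 0.2, 0.2 and 0.4, adjusted 0.238, 0.238 and 0.431). Single young mice moved these values, since Hspa4l was at 0.69 and Chordc1 at 1.11 without young mouse 2, and Hsph1 at 1.86 and Chordc1 at 2.59 without young mouse 3. Rbm3 overlapped as well, with a log2 difference of -0.19 (standard error 0.11; exact permutation test, p = 0.3, adjusted 0.337), which became -0.49 (p = 0.1 in that test) after rescaling, -0.11 without 3HB mouse 3 and -0.13 without young mouse 1. So 1 of the 5 genes did not overlap, where 38.1% of the genes of the table did not. Without young mouse 3 all 4 heat shock genes were higher in the 3HB mice without overlap, where 69.9% of the table showed none. From high to low, the means of Rbm3 were ordered old, young and 3HB, and the values of young and 3HB mice overlapped as deposited.

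**Figure D4:**
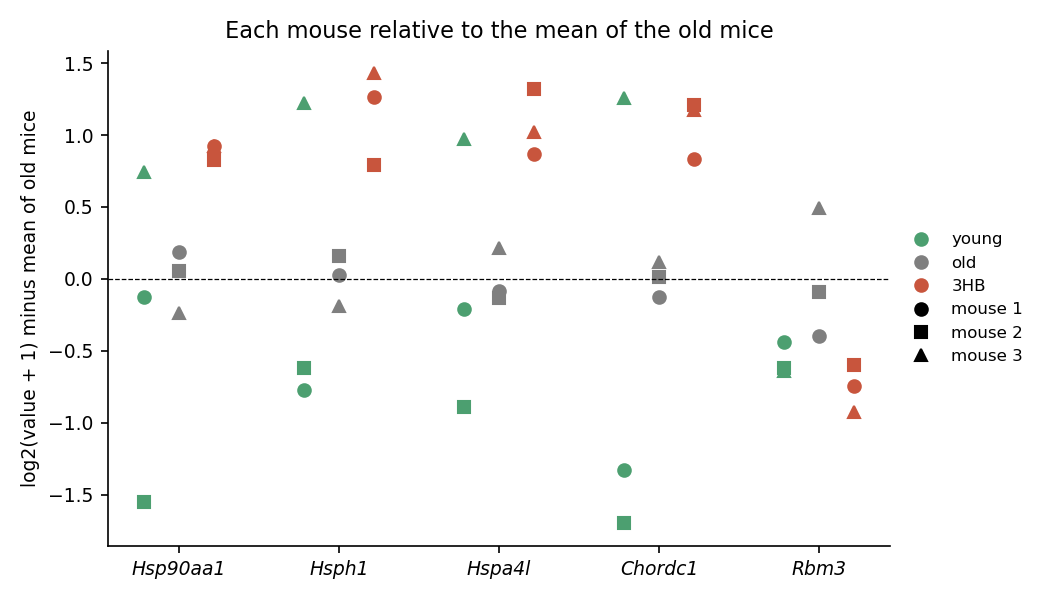
Log2(value + 1) of each mouse minus the mean of the old mice (y axis; dashed line, no difference) for each gene (x axis), with colour for the group and symbol for the mouse. Young mouse 3 (green triangle) stands at 0.74 to 1.26 in the heat shock genes, among the 3HB mice or next to them, while young mice 1 and 2 stand at or below -0.12, and all young mice stand between -0.64 and -0.44 in Rbm3.

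The position of young mouse 3 was not particular to the heat shock genes. Of the 43 genes that were higher in 3HB than in old mice, 40 (93.0%) had their highest young value in mouse 3, and of the 70 that were lower, 44 (62.9%) had their lowest young value there. Among the 376 genes called only for age, mouse 3 was the highest young mouse in 38.3% and mouse 1 in 36.7%. Across the 113 genes, the log2 difference between young mouse 3 and the other young mice had a Pearson correlation of 0.70 with the difference between 3HB and old mice, and 0.68 over the 108 genes that are not members. The points share their libraries, genes are not independent replicates, and only called genes are listed, so this is given as a description. On the log2(value + 1) scale the heat shock genes were 1.52 to 2.77 higher in young mouse 3 than in the other young mice. Rbm3 was 0.11 lower there, in the same direction as 55 of the 70 genes that were lower in 3HB mice. What sets this mouse apart was not tested.

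**Figure D5:**
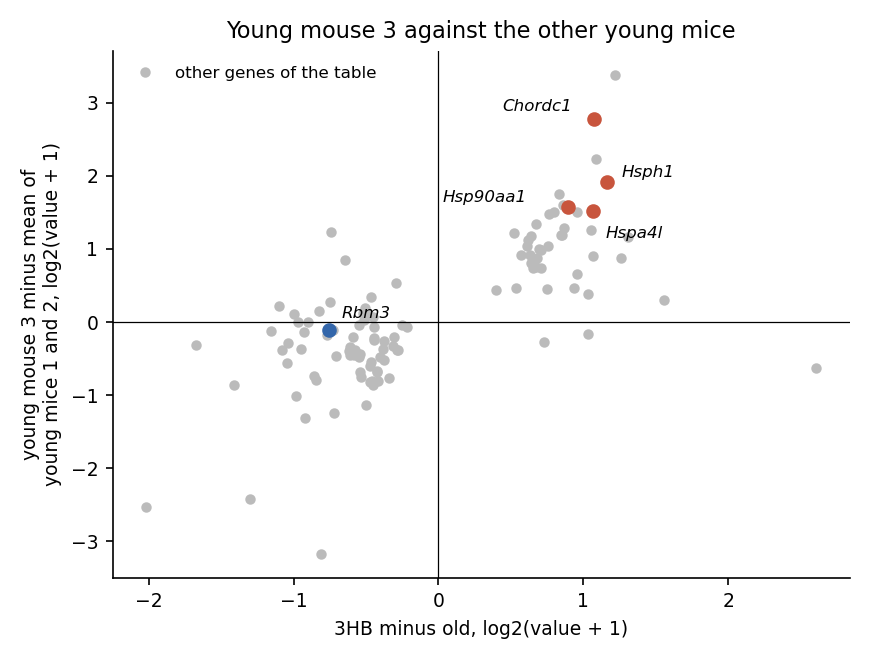
Log2 difference between young mouse 3 and the mean of young mice 1 and 2 (y axis) against the log2 difference between 3HB and old mice (x axis) for the 113 genes of the table. The heat shock genes (red) lie in the upper right with 40 of the 43 genes that were higher in 3HB mice above 0 on the y axis, and Rbm3 (blue) lies at -0.11.

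Other genes of the chaperone network were looked up from lists of known members, of which only genes called by the authors can appear in a table. Of 46 cytosolic chaperones and co-chaperones, 4 were in the table for 3HB against old. These are the 4 heat shock genes of the set, which was formed from such names in that table, so the match is by construction. The other listed genes, among them the strongly heat-inducible Hspa1a, Hspa1b, Hspb1, Dnajb1 and Bag3, were in neither table, and their values were not analysed here. Of 6 regulators including Hsf1, 9 mitochondrial chaperones, 8 subunits of the CCT chaperonin, 21 names of circadian clock genes and 17 immediate early genes, 0 were in either table. Of 5 cold-inducible genes only Rbm3 was listed, and Cirbp, its closest relative, was not. The list of 23 chaperones and stress genes of the endoplasmic reticulum had 3 genes in the table, Hyou1 and Dnajc3 among them, all higher in 3HB mice without overlap, with a median log2 difference of 0.71. Hyou1, the HSP110 relative in the endoplasmic reticulum, was at 21.4, 24.9 and 19.1 in old and 45.1, 37.0 and 47.4 in 3HB mice. In these 3 genes as well, young mouse 3 was the highest young mouse.

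The annotation carried in the tables was compared as well. The heat shock genes were chosen by name, so terms for heat and chaperones fall on them by that choice. They are given as a description. The Reactome term for the cellular response to heat stress was attached to 3 of the 489 genes, and these were Hsp90aa1, Hsph1 and Hspa4l. ATP binding was attached to 13 genes of the table for 3HB, all higher in 3HB mice, among them all 4 heat shock genes. The GO term response to unfolded protein was attached to 4 genes, the same 3 heat shock genes and Fbxo6, and Fbxo6 was the 1 that was lower in 3HB mice. The HSP70 domain was attached to Hsph1, Hspa4l and 1 further gene. The term response to cold was attached to 2 genes, Rbm3 and Hsp90aa1, which differed in opposite directions. Chordc1 alone of the 489 genes carried the terms for HSP90 binding and for regulation of the cellular response to heat.

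The genes whose values were most like those of the members over the 9 mice were picked by Pearson correlation among 445 genes with a group mean of at least 1. The mean standardised profile of the 4 heat shock genes was followed most closely by Dnajc3 (r = 0.98), Mgat5 (r = 0.97) and Zfyve16 (r = 0.97). Dnajc3, a co-chaperone of the endoplasmic reticulum, was at 16.9, 13.8 and 29.7 in young, 21.4, 20.0 and 21.1 in old and 31.3, 36.2 and 31.2 in 3HB mice. It showed the same high value in young mouse 3. The profile of Rbm3 was followed by the ribosomal protein gene Rps18 (r = 0.90), its pseudogene Rps18-ps3 (r = 0.87) and Siva1 (r = 0.87). Rps18 was at 62.5, 44.4 and 40.1 in young, 53.6, 74.9 and 87.5 in old and 41.3, 49.9 and 46.9 in 3HB mice, and it can share reads with its pseudogenes. All 6 genes are from the table for 3HB against old, and the 9 mice fall into 3 groups, so these correlations describe likeness and carry no test.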

How the data were processed

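Kidney RNA of 9 mice was analysed (3 young, 3 old, 3 given 3HB). The authors deposited 2 tables of normalized expression values, 1 column per mouse, restricted to the genes they called for each comparison. The submitters' processing notes name CASAVA, HISAT2, StringTie and the build GRCm38, without roles or versions. The unit, the annotation release and the calling threshold are not given in the sources used here. Because only called genes are listed, no model across genes was fitted and depth per mouse is unknown, so precision rests on the spread among mice.

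A pseudocount of 1 was added, log2 was taken, and differences between group means were given with a standard error that combines the spread of each. Tests of single genes were two-sided exact permutation tests over the 20 divisions of 6 mice. They were run for young against old and 3HB against young (10 tests of members), with Benjamini-Hochberg adjustment over 489 genes. Of these, 389 are listed because the authors called them for young against old on the same mice, so adjusted values control no error rate and are given only for completeness. Named genes are the 5 members, listed genes found in a table, at most 2 examples of the endoplasmic reticulum list, and the 3 genes most correlated with each profile. Nploc4, Rps18 as a promoter match, Fbxo6 and the listed genes in neither table were named after values were seen. The members, lists and tests were chosen with earlier results of these data known. Protein sequences were not analysed here. Promoters came from RefSeq and gene positions from GENCODE M21. Alternatives were a pseudocount of 0.1, the median of the mice, rescaling to the median of ratios, a minimum group mean of 1, pairing by replicate number and leaving out each mouse; those for 3HB against young, those for the count of heat shock genes without overlap between young and old, the shares of the table without young mouse 3, and the rescaled values of single mice were added after seeing the data. Scripts were tested on simulated data. Scripts ran under Python 3.11.15 with scipy 1.17.1, numpy 2.4.6, matplotlib 3.10.9 and pandas 2.3.3.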

Additional observations from a re-analysis of the deposited data

How the results depend on the processing

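The median log2 difference between 3HB and old mice of the 4 heat shock genes, which were chosen on these values, ranged from 0.97 to 1.14 when each mouse was left out, and the difference of Rbm3 from -0.95 to -0.51. Rescaling lowers the old minus young difference of every gene by 0.30 on a log2 scale without pseudocount. On the log2(value + 1) scale the median of the 4 heat shock genes turned from 0.18 to -0.071, Hsph1 to -0.23 and Hspa4l to -0.16. With the median in place of the mean of the mice, the median of the 4 was 0.41. The rescaling used only called genes, which is a limited reference. Most listed genes were called for age, so its shift between old and young mice cannot be told apart from age differences of the reference. With each mouse left out in turn, old minus young ranged from -0.31 to 0.84 for Hsp90aa1, from -0.30 to 0.70 for Hsph1, from -0.38 to 0.55 for Hspa4l, from 0.037 to 1.51 for Chordc1 and from -0.27 to 0.77 for the median of the 4, and the number of heat shock genes without overlap ranged from 0 to 3. The highest of these values, including the count of 3, came without young mouse 3 and the lowest differences without young mouse 1 or 2. Hsph1 also turned to -0.022 without old mouse 2, and Hspa4l to -0.063 without old mouse 3. For Rbm3 old minus young ranged from 0.32 without old mouse 3 to 0.77 without old mouse 1. In the same way, 3HB minus young ranged from 0.58 to 1.73 for Hsp90aa1, from 0.86 to 1.86 for Hsph1, from 0.69 to 1.62 for Hspa4l and from 1.11 to 2.59 for Chordc1, lowest without young mouse 2 (Hsph1 without young mouse 1) and highest without young mouse 3. For Rbm3 it ranged from -0.27 without 3HB mouse 2 to -0.11 without 3HB mouse 3.

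The replicate numbers showed no sign of pairing the mice. Deviations of mice with the same number correlated between -0.24 and 0.16, and the same number correlated best in 4 of 18 cases. With 3 mice per group and called genes only, this cannot exclude pairing, and the labels do not state any. With the replicate block the log2 differences are the same by construction. For Rbm3, old minus young was 0.57 with the block (two-sided exact sign-flip test, p = 0.25, the smallest that 3 pairs allow). No gene could pass a threshold of 0.05 with or without the block, so the block says nothing about stability. The labels do not give batches, so handling that went with a group cannot be told apart from it.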
